A study of Mus musculus with 48 samples.

Results

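The genotype by imipramine interaction asked whether imipramine changed the amygdala transcriptome of *Brd1*+/- mice differently from that of WT mice. It was the contrast of the imipramine (IMN) minus vehicle difference in *Brd1*+/- mice less the same difference in WT mice, taken on log2(TPM + 0.1). A value below 0 therefore means that the IMN minus vehicle difference was lower in *Brd1*+/- mice than in WT mice. The contrast used the 32 of 48 amygdala libraries labelled with vehicle or IMN, 8 in each of 4 groups, which were taken by these labels with no expression value used.

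All mice were females, labelled as strain C57BL/6NTac-Brd1 in both genotypes and aged 8 to 11 weeks. *Brd1*+/- mice carried 1 *Brd1* allele disrupted constitutively by a targeted deletion, whereas WT mice carried none. Vehicle was a saline injection and IMN was given at 10 mg/kg, subcutaneously per the study's methods. The methods also describe behavioural testing of the injected mice and needle punches of the right amygdala, so drug, injection and testing stress acted on the same animals, and saline and testing were shared by all 4 groups. The other 16 libraries came from WT and *Brd1*+/- mice given fluoxetine (FLX, 5 mg/kg) and enter only the FLX interaction, the comparison of IMN with FLX and a fit of all 48 libraries.

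Imipramine is a tricyclic antidepressant that blocks the reuptake of serotonin and noradrenaline. BRD1 is a scaffold protein of histone acetyltransferase complexes that bind chromatin near transcription start sites. Many of the transcripts described below do not encode protein. Mitochondrial tRNAs are cut out of long transcripts of the mitochondrial genome, microRNAs out of longer nuclear precursors, and 7SL RNA is the RNA scaffold of the signal recognition particle, which guides nascent secretory proteins to the endoplasmic reticulum.

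Of 26673 genes tested, 143 (0.536%) had a genotype by IMN interaction at an adjusted *p* below 0.05 in limma. In all but 1 of them (0.532% of genes) the IMN difference was lower in *Brd1*+/- mice, and in 1 (0.00375%), the mitochondrial proline tRNA gene mt-Tp, it was higher. The lower group held 5 of the 22 mitochondrial tRNAs, 6 copies or relatives of 7SL RNA, 3 small transcripts annotated as microRNAs in the imprinted Dlk1-Dio3 region, the nuclear long non-coding RNA Malat1, and 82 transcripts lying in introns of other genes. Multi-exon protein-coding genes gave 2 calls among 15312 tested (0.0131%), Mettl5 and Muc6. At an unadjusted *p* below 0.05 there were 1741 lower and 723 higher genes.

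The plot of the IMN difference by genotype shows where these 143 genes lay. For the lower genes, all called genes but mt-Tp, the median interaction was -2.18 on the log2 scale, with a range from -6.60 to -0.70, against a median of -0.03 over all genes tested. Their median IMN minus vehicle difference was -1.84 in *Brd1*+/- mice and 0.31 in WT mice. Their median *Brd1*+/- minus WT difference was 1.81 with vehicle and -0.31 with IMN.

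**Figure D1:**
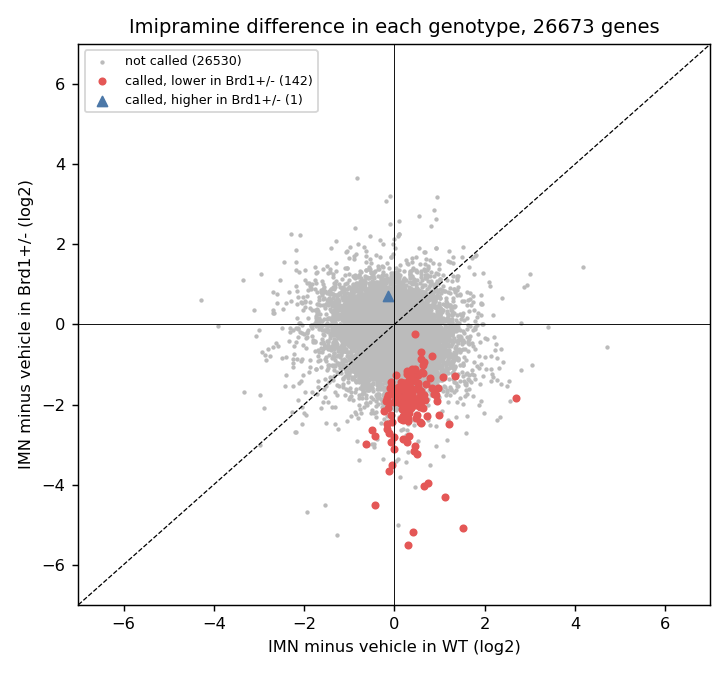
IMN minus vehicle difference in log2(TPM + 0.1) in WT mice (horizontal axis) and in *Brd1*+/- mice (vertical axis) for the 26673 genes tested, with 8 libraries in each of the 4 groups. The genes called with a lower difference in *Brd1*+/- mice (red) lie below the dashed line of equal difference, mostly at low vertical and slightly raised horizontal values, and mt-Tp (blue triangle) is the 1 gene called above it.

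The pattern was centred on vehicle-treated *Brd1*+/- mice. The mean was highest in that group for all but 3 of the lower genes. In 44 of the calls every vehicle-treated *Brd1*+/- library lay above all libraries of the other 3 groups, as it did for 0.18% of all genes tested. In 80 calls every vehicle-treated *Brd1*+/- library lay above every IMN-treated one, against 0.454% of all genes tested. This order and these counts describe genes picked by the same contrast and were not tested. The filter for testing, at least 0.1 TPM in at least 8 of the 32 libraries, could be met by any group of 8 alone. Genes measured mainly in vehicle-treated *Brd1*+/- mice were thus admitted. Of the 143 calls, only 58 passed the filter in the fit of IMN and FLX libraries, without vehicle.

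The summed level of the lower genes gave the same order. It ran from 401.8 to 623 TPM (median 550) in vehicle-treated WT mice and from 721 to 959 TPM (median 878) in IMN-treated WT mice. It ran from 1334 to 1910 TPM (median 1581) in vehicle-treated *Brd1*+/- mice and from 365 to 608 TPM (median 463) in IMN-treated *Brd1*+/- mice. These ranges overlapped only between vehicle-treated WT and IMN-treated *Brd1*+/- mice. These sums describe genes picked by the same contrast and were not tested. They are made up mostly of a few abundant calls, chiefly Malat1 and mitochondrial tRNAs, and say little of the many calls under 1 TPM.

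The 4 simple differences of the same fit are the terms from which the interaction is made. IMN against vehicle called 336 genes in *Brd1*+/- mice (1.26%), 332 lower and 4 higher. In WT mice it called 2 genes (0.0075%), the mitochondrial tRNAs mt-Th and mt-Tl2, both higher, with 1355 genes at an unadjusted *p* below 0.05. The genotype difference called 304 genes with vehicle (1.14%), 298 of them higher in *Brd1*+/- mice, and 6 genes with IMN (0.0225%). The 6 were mt-Th, mt-Tl2, mt-Tr and Brd1, lower in *Brd1*+/- mice, and AY036118 and CT010467.1, higher. Among the 143 interaction calls, 140 were also called between the genotypes with vehicle and 3 with IMN, all but 4 for IMN in *Brd1*+/- mice and 2 for IMN in WT mice.

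Brd1 itself (ENSMUSG00000022387, chr15:88687034-88734233, minus strand, GRCm38) matched the genotype labels. It ranged from 26.5 to 41.0 TPM (median 37.9) in vehicle-treated WT, 31.9 to 41.0 (37.3) in IMN-treated WT, 21.8 to 30.6 (26.2) in vehicle-treated *Brd1*+/- and 16.6 to 29.5 (22.8) in IMN-treated *Brd1*+/- mice. The genotype difference was -0.45 with vehicle (exact two-sided permutation test, *p* = 0.00109, adjusted *p* = 0.00218 over 4 comparisons). With IMN it was -0.68 (exact permutation *p* = 0.000155, the smallest the test can give, adjusted *p* = 0.000622). The Brd1 interaction was -0.23 ± 0.15 (SE, limma adjusted *p* = 0.681), and IMN against vehicle gave -0.17 in *Brd1*+/- (exact permutation *p* = 0.182) and 0.06 in WT mice (exact permutation *p* = 0.514).

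Mitochondrial tRNAs were called more often than any other annotated class with more than 20 members tested, 6 of 22 (27.3%) against 0.536% of all genes. Each reads a codon family during translation of the mitochondrial genome's own proteins. The sequences of the 6, from the GENCODE M21 transcripts of GRCm38, are given to show how short they are and which amino acid each serves, with the anticodon in capitals.
mt-Th: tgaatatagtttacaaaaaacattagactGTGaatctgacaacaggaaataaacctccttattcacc
mt-Ts2: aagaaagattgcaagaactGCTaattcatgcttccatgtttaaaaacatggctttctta
mt-Tl2: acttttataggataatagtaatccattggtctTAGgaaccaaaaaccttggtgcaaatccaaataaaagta
mt-Tg: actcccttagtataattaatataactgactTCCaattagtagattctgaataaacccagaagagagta
mt-Tr: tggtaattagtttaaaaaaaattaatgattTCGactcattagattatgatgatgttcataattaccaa
mt-Tp: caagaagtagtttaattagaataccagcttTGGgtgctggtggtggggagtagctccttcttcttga

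The lower tRNAs mt-Th for histidine (chrM:11546-11612), mt-Ts2 for serine (chrM:11613-11671) and mt-Tl2 for leucine (chrM:11671-11741) form 1 run of 196 bases on the plus strand. mt-Tg for glycine (chrM:9391-9458) and mt-Tr for arginine (chrM:9808-9875) lie on the same strand. The 1 higher call, mt-Tp for proline (chrM:15356-15422), is encoded on the minus strand, immediately next to mt-Tt. Reads of neighbouring tRNAs may come from uncut precursors, and whether the counting used strand is not given in the sources used here.

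mt-Th moved in opposite directions with IMN in the 2 genotypes. It ranged from 27.6 to 61.6 TPM (median 35.2) in vehicle-treated WT and from 63.9 to 93.4 TPM (74.5) in IMN-treated WT mice. It ranged from 70.6 to 107 TPM (95.4) in vehicle-treated *Brd1*+/- and from 14.8 to 34.0 TPM (26.1) in IMN-treated *Brd1*+/- mice. Every IMN-treated WT library lay above every vehicle-treated WT library, and every IMN-treated *Brd1*+/- library below every vehicle-treated one. mt-Th rose with IMN in WT mice by 0.94 ± 0.16 (SE, adjusted *p* = 0.0231) and fell in *Brd1*+/- mice by 1.90 ± 0.16 on the log2 scale (adjusted *p* = 1.9e-09). The interaction was -2.84 ± 0.22 (adjusted *p* = 1.44e-09, limma). The WT calls of mt-Th and of mt-Tl2 were both lost, leaving 0 genes called for IMN in WT mice, under median-ratio scaling, quantile normalization, a fit of all 48 libraries, sample code terms and a fit of the 2 WT groups alone. They were also both lost without vehicle-treated WT replicate 2 or 3 or without IMN-treated WT replicate 1, 4, 7 or 8, and 1 of them was lost with the replicate block and without vehicle-treated WT replicate 1, 4 or 6.

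mt-Tl2 had the same order of groups. Its TPM ran from 58.6 to 135.6 (median 104) in vehicle-treated WT, 162 to 224 (187) in IMN-treated WT, 141 to 223 (212) in vehicle-treated *Brd1*+/- and 38.2 to 91.3 (68.0) in IMN-treated *Brd1*+/- mice. The groups compared within each genotype again did not overlap. Its IMN difference was 0.96 in WT (adjusted *p* = 0.0197, a call lost under the alternatives just given) and -1.60 in *Brd1*+/- mice, and its interaction -2.56 ± 0.22 (adjusted *p* = 7.55e-09). mt-Ts2, which lies between these tRNAs, ran from 2.47 to 5.24 TPM (4.09), 5.06 to 7.07 (5.94), 5.79 to 8.28 (7.24) and 2.98 to 4.87 (3.68) in the same order of groups. Its interaction was -1.46 ± 0.19 (adjusted *p* = 2.53e-05), and the vehicle-treated *Brd1*+/- libraries lay above both the vehicle-treated WT and the IMN-treated *Brd1*+/- libraries.

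The other lower tRNAs overlapped more between groups. mt-Tg medians were 37.2 TPM in vehicle-treated WT, 69.5 in IMN-treated WT, 65.3 in vehicle-treated *Brd1*+/- and 41.8 in IMN-treated *Brd1*+/- mice, with an interaction of -1.63 ± 0.26 (adjusted *p* = 0.000403). mt-Tr medians were 54.0, 80.4, 75.0 and 48.7 TPM, with an interaction of -1.29 ± 0.21 (adjusted *p* = 0.000821). The level of both was thus higher with IMN in WT and lower with IMN in *Brd1*+/- mice by the medians.

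mt-Tp went the other way. It ranged from 532 to 730 TPM (median 609) in vehicle-treated WT, 456 to 747 (530) in IMN-treated WT, 300 to 524 (366) in vehicle-treated *Brd1*+/- and 421 to 789 (644) in IMN-treated *Brd1*+/- mice. The vehicle-treated WT libraries all lay above the vehicle-treated *Brd1*+/- libraries, while the other groups overlapped. mt-Tp rose with IMN by 0.70 in *Brd1*+/- mice (adjusted *p* = 0.000785), against -0.13 in WT mice, and its interaction was 0.84 ± 0.18 (adjusted *p* = 0.0133). This call was lost under 4 alternatives, a filter at 1 TPM, median-ratio scaling, quantile normalization and the number of genes above 0 as a covariate.

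**Figure D2:**
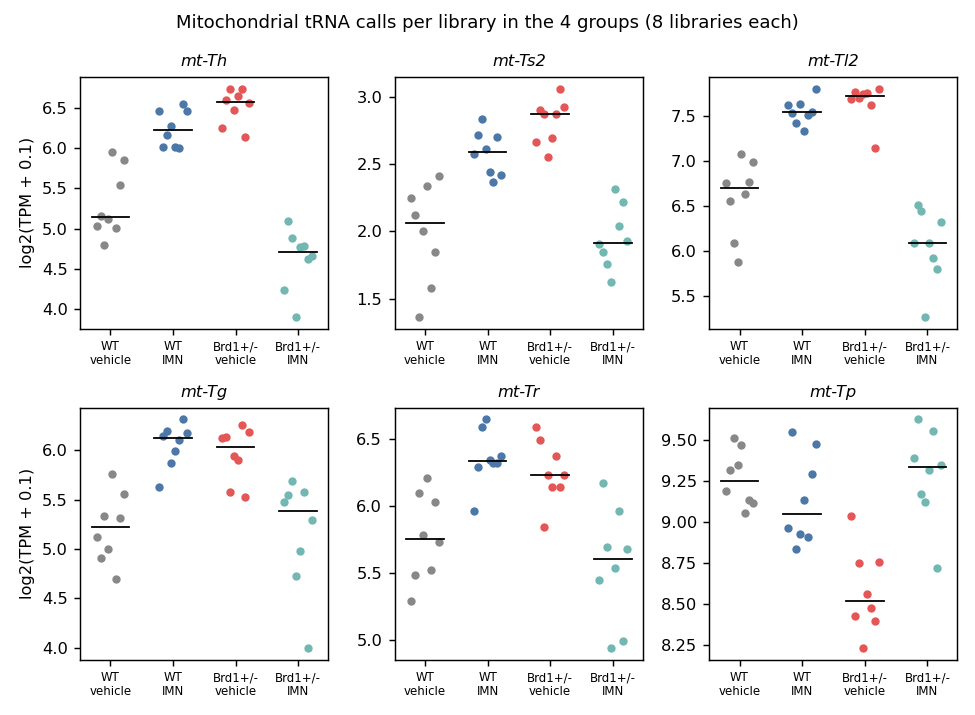
Level of the 6 called mitochondrial tRNAs as log2(TPM + 0.1), each point 1 library and each bar the median of the 8 libraries of a group. mt-Th, mt-Ts2, mt-Tl2, mt-Tg and mt-Tr have raised medians in IMN-treated WT and vehicle-treated *Brd1*+/- mice, and mt-Tp is lowest in vehicle-treated *Brd1*+/- mice.

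The remaining 16 mitochondrial tRNAs were not called. They included mt-Tk for lysine at -0.67 (adjusted *p* = 0.133), mt-Te for glutamate at -0.09 (0.896) and mt-Ts1 for serine at -0.18 (0.833). Over all 22 the median interaction was -0.35 and 21 were below 0. The 13 mitochondrial mRNAs, which are cut from the same precursors, had 0 calls and a median of -0.07, and the 2 mitochondrial rRNAs had 0 calls and a median of -0.18. None of 14 nuclear genes for mitochondrial RNA processing was called, with a median of -0.01.

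Mir487b (ENSMUSG00000076219, chr12:109727333-109727414, plus strand) had the interaction farthest from 0 among the calls. It is a hairpin of the Dlk1-Dio3 imprinted region, whose non-coding RNAs are expressed from the maternal allele. The hairpin and its mature 5p arm, from RefSeq for GRCm38.p6, are shown because the level given here is that of the hairpin's locus and not of the mature microRNA. Capitals mark the seed of the 5p sequence, bases 2 to 8, and the 5p arm in the hairpin. The other arm is not marked.
mmu-miR-487b-5p: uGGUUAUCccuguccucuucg
Mir487b hairpin: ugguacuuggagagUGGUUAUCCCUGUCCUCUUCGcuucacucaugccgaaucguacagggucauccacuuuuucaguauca

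In vehicle-treated *Brd1*+/- mice Mir487b ranged from 1.09 to 8.58 TPM, with a median of 4.28. It was listed at 0 in all 8 IMN-treated *Brd1*+/- libraries. In WT mice it was listed at 0 in 7 of 8 libraries with vehicle (highest 0.197 TPM) and in 5 of 8 with IMN (highest 3.38 TPM). All 8 vehicle-treated *Brd1*+/- libraries thus held the transcript, and the highest IMN-treated WT library reached into their range. The interaction was -6.60 ± 0.92 (adjusted *p* = 6.09e-05), a size that depends on the pseudocount because 1 group was at 0.

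Other transcripts of the same region followed. Gm27379 (annotated as microRNA, chr12:109728821-109728943) ranged from 1.42 to 7.61 TPM (median 5.3) in vehicle-treated *Brd1*+/- mice, and its median was 0 in the other 3 groups, with an interaction of -5.59 ± 0.89 (adjusted *p* = 0.000403). Gm25252 (chr12:109723756-109723875, on the strand opposite Mir376a) had a median of 2.83 TPM in vehicle-treated *Brd1*+/- mice, was listed at 0 in all 8 IMN-treated *Brd1*+/- libraries, and gave -4.08 ± 0.87 (adjusted *p* = 0.0143). A value opposite a known hairpin is uncertain where strand was not used in counting.

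The longer Dlk1-Dio3 transcripts Gm37899 and B830012L14Rik separated the groups at lower levels. Gm37899 (chr12:109668869-109677585) ranged from 0.648 to 2.18 TPM in vehicle-treated *Brd1*+/- mice and did not exceed 0.0537 TPM in vehicle-treated WT, 0.131 TPM in IMN-treated WT or 0.0717 TPM in IMN-treated *Brd1*+/- mice. Its interaction, -3.74 ± 0.28, had the smallest adjusted *p* of all genes (5.69e-10). B830012L14Rik (chr12:109695586-109702587) had medians of 0.0788, 0.122, 1.15 and 0.0149 TPM in vehicle-treated WT, IMN-treated WT, vehicle-treated *Brd1*+/- and IMN-treated *Brd1*+/- mice, and an interaction of -3.50 ± 0.45 (adjusted *p* = 1.79e-05).

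Of 118 annotated genes of the Dlk1-Dio3 region 75 were tested, and 5 were called (6.67%, against 0.536% overall), all lower. The region holds Mir487b and was chosen with earlier results of these data known, so this share is descriptive and was not tested. Members such as Gm27379 and Gm25252 met the filter by vehicle-treated *Brd1*+/- libraries alone. Transcripts of 1 region may also not be independent of one another. At an unadjusted *p* below 0.05 there were 23 lower and 0 higher genes, and the regional median was -0.39. The abundant maternally expressed RNAs of the region were not called, with Meg3 at 0.19 (adjusted *p* = 0.898) and Rian at 0.30 (0.681). None of 9 genes for microRNA processing was called, with a median of 0.10 and Drosha, which cuts hairpins from their precursors, at 0.14.

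The 7SL RNA copies separated vehicle-treated *Brd1*+/- mice from the other groups at levels well above 10 TPM. Rn7s1 and Rn7s2 have the same 300 bases in the GENCODE M21 transcripts, so their reads cannot be assigned to 1 copy. Rn7s1 also shares 77 bases with Gm47295, a 79-base transcript annotated as microRNA on the same strand.

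Rn7s1 (chr12:69159295-69159594) ranged from 1.36 to 5.25 TPM (median 2.96) in vehicle-treated WT and 1.41 to 10.4 (5.43) in IMN-treated WT mice. It ranged from 68.1 to 122.1 TPM (89.9) in vehicle-treated *Brd1*+/- and 2.16 to 9.38 (5.72) in IMN-treated *Brd1*+/- mice. All 8 vehicle-treated *Brd1*+/- libraries lay above the other 24, whose groups overlapped. The interaction was -4.68 ± 0.46 (adjusted *p* = 1.13e-07), made of an IMN difference of -4.02 in *Brd1*+/- and 0.66 in WT mice.

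Rn7s2 (chr12:69361182-69361481) gave -4.71 ± 0.48 (adjusted *p* = 1.62e-07) and Gm47295 (chr12:69159518-69159596) gave -5.44 ± 0.96 (adjusted *p* = 0.00165), on reads shared with Rn7s1. Further relatives, identical to Rn7s1 over 80.2% to 93.9% of their own length, were Gm26461 at -3.61 (adjusted *p* = 1.79e-05), Gm24105 at -3.54 (0.0260), Gm24514 at -3.47 (6.09e-05) and Gm23153 at -1.85 (0.0431). These values are not independent of one another. Rn7s6 was not tested, since it was above 0 in 7 libraries, all of vehicle-treated *Brd1*+/- mice, where its median was 41.5 TPM. The 8 protein genes of the signal recognition particle and its receptor had 0 calls and a median of 0.01, and 16 genes of the unfolded protein response 0 calls and a median of -0.04.

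Gm22009 (ENSMUSG00000089417, chr3:69085105-69085447), annotated as a small Cajal body RNA, a class that guides modification of spliceosomal RNAs, lies in an intron of Kpna4. It ranged from 11.3 to 25.4 TPM (median 17.6) in vehicle-treated *Brd1*+/- mice. It did not exceed 0.911 TPM in vehicle-treated WT, 1.76 TPM in IMN-treated WT or 0.878 TPM in IMN-treated *Brd1*+/- mice. The interaction was -5.81 ± 0.91 (adjusted *p* = 0.000316), and it was not called with a pseudocount of 0.01. It was the 1 call among 22 small Cajal body RNAs, and snoRNAs and the 193 snRNAs tested gave 0 calls.

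Malat1 (chr19:5795690-5802672), a long non-coding RNA kept in the nucleus at splicing speckles, was the most abundant lower call. It ranged from 190 to 372 TPM (median 255) in vehicle-treated WT and 305 to 513 (388) in IMN-treated WT mice. It ranged from 637 to 1031 TPM (765) in vehicle-treated *Brd1*+/- and 176 to 335 (245) in IMN-treated *Brd1*+/- mice. Every vehicle-treated *Brd1*+/- library lay above the other 24. The interaction was -2.26 ± 0.21 (adjusted *p* = 3.29e-08), from an IMN difference of -1.66 in *Brd1*+/- and 0.60 in WT mice. The other 10 nuclear-retained RNAs listed were not called, among them Neat1 at -1.45 (adjusted *p* = 0.583) and Snhg11 at 0.24, and the list's median was 0.04.

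**Figure D3:**
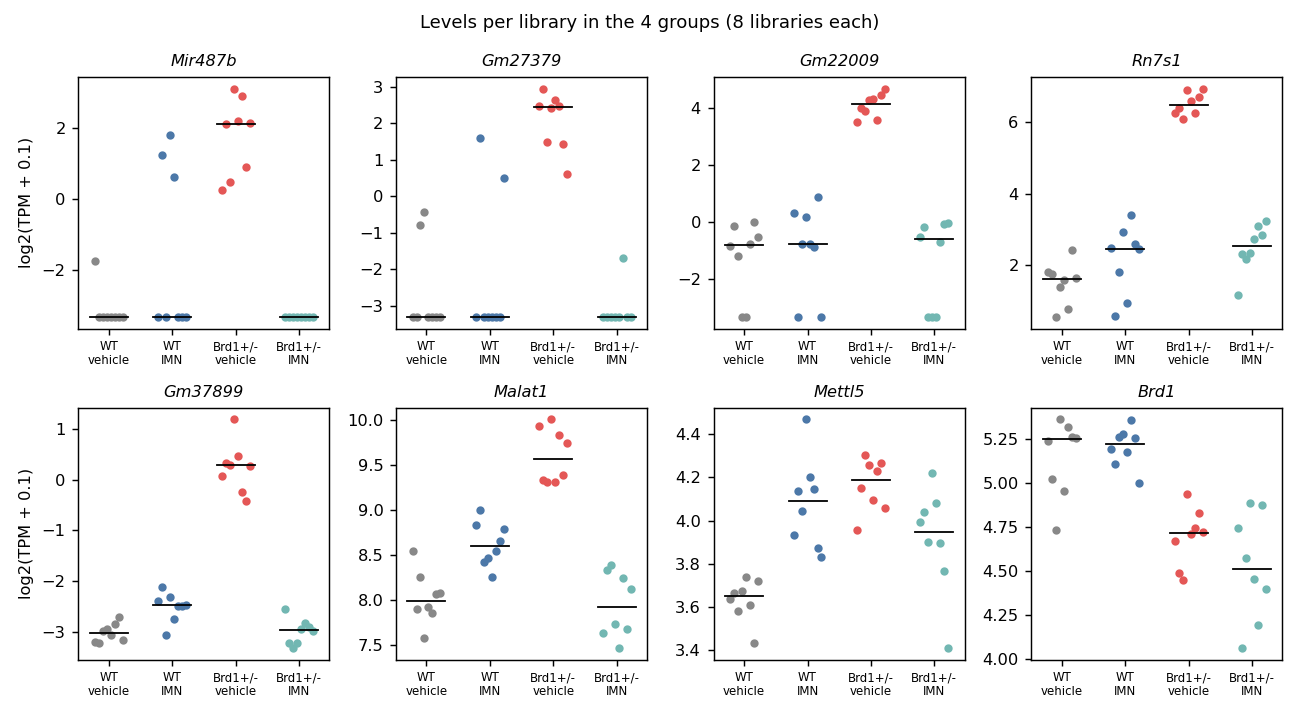
Level of Mir487b, Gm27379, Gm22009, Rn7s1, Gm37899, Malat1, Mettl5 and Brd1 as log2(TPM + 0.1), each point 1 library and each bar the median of the 8 libraries of a group. For Gm22009, Rn7s1, Gm37899 and Malat1 every vehicle-treated *Brd1*+/- library lies above all others, whereas Brd1 follows genotype and not IMN.

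Transcripts inside introns of other genes made up the largest share of the calls, 82 of the 143 and 3.8% of the 2159 such transcripts tested. By class, 73 of the calls were of the TEC class, transcripts awaiting experimental verification (4.85% of those tested), and 14 were sense intronic RNAs (8.38%). The 82 lay in 59 host genes, of which 0 were called and 2 had an unadjusted *p* below 0.05, with a smallest adjusted *p* of 0.377. The median interaction was -2.13 for the intronic calls and -0.01 for their hosts.

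These intronic transcripts were rare beside their hosts. The median of their group means was 0.0348 TPM in vehicle-treated WT, 0.0631 in IMN-treated WT, 0.371 in vehicle-treated *Brd1*+/- and 0.0320 in IMN-treated *Brd1*+/- mice. The same medians for the hosts were 47.3, 48.9, 45.2 and 49.7 TPM. TPM is adjusted for length, and on this scale the hosts did not share the order of groups seen for the intronic transcripts. The intronic transcripts were picked by the contrast itself, whereas the hosts were not. A change of the size seen in the intronic transcripts would hardly show in hosts at these levels. Whether the intronic reads came from unspliced RNA of the hosts was not tested.

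Some hosts held more than 1 call. Frmd4a (chr2) held 6 calls among its 7 intronic transcripts tested, from -2.58 to -1.49, while its own interaction was -0.37 ± 0.25 (adjusted *p* = 0.692). Dlg2 (chr7), a postsynaptic scaffold gene, held 6 among 12, from -2.54 to -1.43, with its own at 0.44 ± 0.29 (adjusted *p* = 0.686). Cntnap2, a neurexin-family cell adhesion gene, held 3 among 8 and was itself at -0.22, and Mlxip held 3 among 3 and was at 0.27. These hosts were named after their values were seen, and 3.8% of all intronic transcripts tested were called. Other hosts held a smaller share, such as Kcnip4 with 2 among 17 and Ank2 with 2 among 10. In all, 13 hosts held 36 of the calls. A further view is the other strand, where 34 calls lay opposite 46 protein-coding genes, of which 0 were called, with a median of -0.03. The share of all genes tested that lie opposite a coding gene was not counted.

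**Figure D4:**
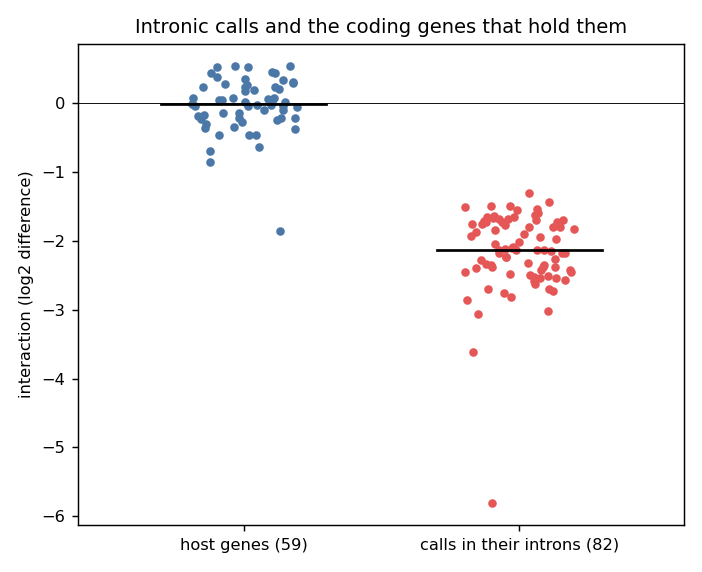
Interaction in log2(TPM + 0.1) for the 82 called intronic transcripts and for the 59 genes whose introns hold them, each point 1 gene and each bar the median. The intronic transcripts centre on -2.13 and their hosts on -0.01.

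Mettl5 (chr2:69871198-69885615, 7 exons), which methylates adenosine in ribosomal RNA, was the most abundant protein-coding call. It ranged from 10.7 to 13.2 TPM (median 12.4) in vehicle-treated WT, 14.1 to 22.1 (16.9) in IMN-treated WT, 15.4 to 19.7 (18.1) in vehicle-treated *Brd1*+/- and 10.5 to 18.5 (15.3) in IMN-treated *Brd1*+/- mice. Vehicle-treated WT libraries lay below both IMN-treated WT and vehicle-treated *Brd1*+/- libraries. The interaction was -0.70 ± 0.14 (adjusted *p* = 0.00491), while IMN alone was not called in WT (0.45, adjusted *p* = 0.380) or in *Brd1*+/- mice (-0.25, adjusted *p* = 0.333). The call was lost in a fit restricted to multi-exon coding genes (adjusted *p* = 0.2001). Mettl5 overlaps Ssb on the opposite strand, so its level is uncertain without strand.

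The other multi-exon protein-coding call was Muc6, a secreted mucin gene measured at under 1 TPM. Its medians were 0.0624, 0.0654, 0.354 and 0 TPM in vehicle-treated WT, IMN-treated WT, vehicle-treated *Brd1*+/- and IMN-treated *Brd1*+/- mice, and its interaction was -1.78 ± 0.35 (adjusted *p* = 0.00636). Muc6 too was not called in that restricted fit (adjusted *p* = 0.2001). The 3 single-exon protein-coding calls were Gm10277, B130006D01Rik and Psapl1. Gm10277, which lies opposite Myo18a, was at -3.11 ± 0.34 (adjusted *p* = 9.49e-07). Another call with a group mean of at least 1 TPM was 9330158H04Rik at -3.26 ± 0.72 (adjusted *p* = 0.0200). Over all calls, 117 had a highest group mean under 1 TPM and 12 reached 10 TPM.

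No gene outside mitochondrial DNA was called with a higher IMN difference in *Brd1*+/- mice. Those with a mean of at least 1 TPM and the smallest *p* were Gm42477 at 4.54 ± 1.15 (adjusted *p* = 0.0680), Riox2 at 0.61 ± 0.16 (0.0731), 4930538E20Rik at 4.20 (0.107), Gm22413 at 2.96 (0.107) and Gm4926 at 3.18 (0.109). Riox2, a ribosomal oxygenase gene, had medians of 11.5, 10.0, 9.22 and 11.9 TPM in vehicle-treated WT, IMN-treated WT, vehicle-treated *Brd1*+/- and IMN-treated *Brd1*+/- mice.

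The gene groups fixed for the tissue and drug had 0 calls in most cases. Immediate-early genes, switched on by neuronal activity, had 0 calls among 18, but all 18 values were above 0 with a median of 0.96, and 9 had an unadjusted *p* below 0.05 (smallest adjusted *p* = 0.277). Over all genes tested 46.6% were above 0 and 2.71% were above 0 at that unadjusted *p*. Their median IMN difference was -1.02 in WT and -0.05 in *Brd1*+/- mice. Egr1, a transcription factor of this group, ranged from 75.2 to 144 TPM (median 120) in vehicle-treated WT, 18.2 to 107 (54.7) in IMN-treated WT, 31.6 to 103 (70.5) in vehicle-treated *Brd1*+/- and 41.6 to 83.1 (62.8) in IMN-treated *Brd1*+/- mice, and its interaction was 0.90 (adjusted *p* = 0.452). Nr4a1, a nuclear receptor gene of the group, had medians of 64.2, 29.2, 33.7 and 37.0 TPM and an interaction of 1.06. The group medians of both genes were thus highest in vehicle-treated WT mice, with ranges that overlapped.

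Oligodendrocyte genes leaned the other way. All 10 had an unadjusted *p* below 0.05 and a negative value, with a median of -1.96, and 0 were called (smallest adjusted *p* = 0.373), where 6.53% of all genes tested were below 0 at that unadjusted *p*. Mbp, a major myelin protein gene, was at -2.21 and Mobp at -2.02 (adjusted *p* = 0.391). Their summed level ran from 690 to 11330 TPM (median 1983) in vehicle-treated WT, 1387 to 11251 (3372) in IMN-treated WT, 2386 to 16717 (5719) in vehicle-treated *Brd1*+/- and 1190 to 6988 (2440) in IMN-treated *Brd1*+/- mice. The myelin sum and the summed lower calls both had their highest median in vehicle-treated *Brd1*+/- mice and the next in IMN-treated WT mice. The ranges of the myelin sum overlapped in every pair of groups, and its part in the calls was not tested beyond a fit with striatal, oligodendrocyte and choroid plexus scores as covariates, which called 120 genes. In punches of bulk tissue, fewer cells of a type and less RNA per cell cannot be told apart.

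Microglial genes had 0 calls among 10 and a median of -0.50, with 7 values below 0 at an unadjusted *p* below 0.05, against the same 6.53% of all genes. Medians were -0.42 for 8 astrocyte, -0.50 for 8 endothelial and 0.74 for 9 choroid plexus genes, all with 0 calls. Choroid plexus genes summed to between 13.6 and 29850 TPM over the 4 groups and striatal genes to between 203 and 12052 TPM, each varying within every group. Markers of amygdala neurons summed to between 938 and 3665 TPM, had 0 calls among 12 and a median of -0.18, and no marker was listed at 0 throughout a group.

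Genes of monoamine synthesis, transport and breakdown, where imipramine's targets act, had 0 calls among the 8 tested of 11, with a median of -0.66. Their sum in vehicle-treated *Brd1*+/- mice had a median of 134 TPM and reached 555 TPM. Replicate 7 of that group held its highest levels of Slc18a2 (53.9 TPM) and Ddc (153 TPM). The serotonin transporter gene Slc6a4 and the noradrenaline transporter gene Slc6a2 were below the filter. Both transporter mRNAs are made mainly in brainstem neurons that project to the amygdala. Among 30 monoamine, histamine and muscarinic receptor genes 0 were called and the median was 0.06, with Adra1b at -1.47 (adjusted *p* = 0.368), Htr2c at 0.75 and Hrh3 at 0.43. Genes of Gq-coupled signalling had 0 calls among 14 and a median of 0.32, with Camk2a at 1.12. The 9 genes of the BRD1 complexes had 0 calls and a median of 0.02, with Kat6b at 0.30.

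**Figure D5:**
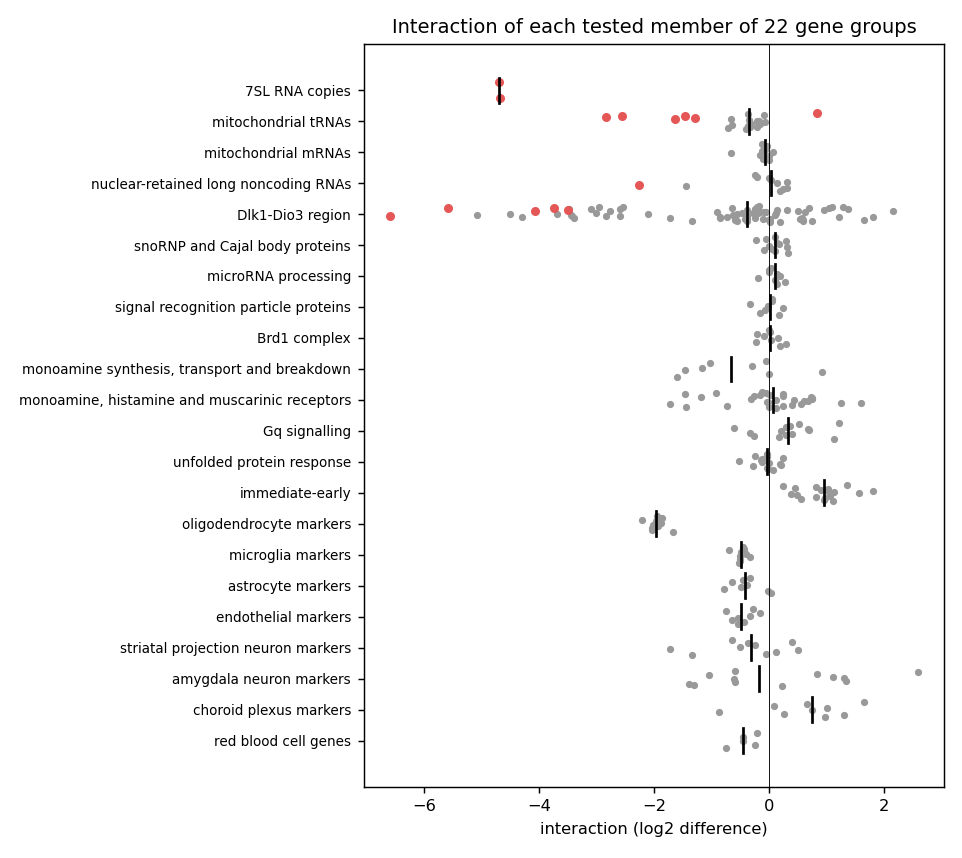
Interaction in log2(TPM + 0.1) for the members of 22 gene groups, each point 1 gene (red where called, grey otherwise) and each bar the group's median. Mitochondrial tRNAs, 7SL copies and the Dlk1-Dio3 region hold called members and Malat1 is the 1 called nuclear-retained RNA, while immediate-early genes lie above 0 and oligodendrocyte genes below 0 without a call.

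The same interaction with FLX in place of IMN called 455 of 26657 genes (1.71%) in a fit that used the same 16 vehicle libraries, so the 2 interactions are not independent. The lower genes had a median of -1.80 with FLX and -2.18 with IMN. Rn7s1 was at -5.29 with FLX and -4.68 with IMN, Malat1 at -1.26 and -2.26, mt-Th at -1.43 and -2.84, mt-Tl2 at -1.38 and -2.56, and mt-Tp at 0.96 and 0.84. Immediate-early genes had medians of 1.56 and 0.96, and oligodendrocyte genes of -2.10 and -1.96. A direct test of the genotype difference under IMN against that under FLX, which leaves the vehicle libraries out, called 0 of 26162 genes in limma (0%), with 1115 at an unadjusted *p* below 0.05, a smallest adjusted *p* of 0.282, and 1 call without a mean-variance trend. Only 58 of the 143 interaction calls passed the filter in that fit. Of these, 9 had an unadjusted *p* below 0.05 and 0 were called, with a median log2 difference of -0.50. The remaining interaction calls were not compared between the drugs.

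Properties of the libraries moved with the same groups. Genes above 0 numbered 24335 to 25611 in vehicle-treated WT, 24050 to 25544 in IMN-treated WT, 25387 to 27252 in vehicle-treated *Brd1*+/- and 23420 to 26549 in IMN-treated *Brd1*+/- mice. The 3 vehicle-treated *Brd1*+/- libraries with most (replicates 3, 4 and 5) held 27190 to 27252. Without these 3 libraries 43 genes were called, but part of the interaction calls then failed the filter and were not tested. With the number of genes above 0 as a covariate 88 were called. AY036118, a transcript overlapping ribosomal RNA sequence, had means of 492, 360, 1399 and 848 TPM in vehicle-treated WT, IMN-treated WT, vehicle-treated *Brd1*+/- and IMN-treated *Brd1*+/- mice, and the rRNA-class CT010467.1 had means of 193, 147, 456 and 298 TPM. The submitters' sample codes ran in separate ranges for vehicle and drug libraries, with both genotypes in each range, so handling tied to these ranges and the drug cannot be told apart. With terms for the upper codes of each range the interaction called 130 genes. These terms put IMN-treated *Brd1*+/- replicates 1 and 2 together with those WT replicates, so they did not separate the codes held by WT mice alone. Whether polyadenylated RNA was selected is not given in the sources used here, and the part of RNA composition in these calls was not tested.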

How the data were processed

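The values were gene-level TPM (transcript levels scaled for length to a fixed total per library), which the authors made and deposited after, per their methods and processing notes, read trimming with Trimmomatic, alignment to GRCm38 with HISAT2 2.1.0 and quantification with StringTie 1.3.4. Column sums were 999524 to 999761 TPM in the 32 libraries. Read depth is unknown from TPM, so counting error could not be given, and short transcripts can reach high TPM from few reads. The table held 52636 genes, of which 52489 were placed by GENCODE M21 (GRCm38).

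Genes with at least 0.1 TPM in at least 8 of the 32 libraries were tested on log2(TPM + 0.1) by 1 limma 3.58.1 fit (R 4.3.3) with 4 group means, a mean-variance trend and Benjamini-Hochberg adjustment, and called at an adjusted *p* below 0.05. The authors' tests used edgeR on counts, which were not used here. The interaction test was checked on simulated data, drawn as normal values with the same spread in every group and without the filter. That simulation does not reproduce genes listed at 0 throughout a group. Fold changes of low genes are understated by the pseudocount. No 2 of the 32 vehicle and IMN libraries were identical (highest *r* 0.959). The labels list separate samples and the methods separate mice, and *p*-values measure the spread between them.

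Genes named were Brd1, Mir487b and mt-Tp, the 14 lower calls and up to 6 higher calls (mt-Tp was the 1 found) farthest from 0 with a group mean of at least 1 TPM, multi-exon coding calls, the 5 uncalled higher genes with smallest *p* at that level, and from each gene list its calls, the 2 members of highest TPM and the 1 of smallest *p*. AY036118, CT010467.1 and hosts of several calls were named after their values were seen. The choice of contrast, lists and members was made with earlier results of these data known, although the contrast's libraries follow from the labels alone. Some members that this rule names, and 1 sequence, are not reported here.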

Additional observations from a re-analysis of the deposited data

Results flagged for a closer look

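The IMN minus vehicle difference was called as differing between genotypes, by the interaction test itself, for 143 genes and, among the genes named, for 23 of them. The log2 interactions were -6.60 for Mir487b, -5.81 for Gm22009, -5.59 for Gm27379, -5.44 for Gm47295, -4.71 for Rn7s2, -4.68 for Rn7s1, -4.08 for Gm25252, -3.74 for Gm37899, -3.61 for Gm26461, -3.54 for Gm24105, -3.50 for B830012L14Rik, -3.47 for Gm24514, -3.26 for 9330158H04Rik and -3.11 for Gm10277. They were -2.84 for mt-Th, -2.56 for mt-Tl2, -2.26 for Malat1, -1.78 for Muc6, -1.63 for mt-Tg, -1.46 for mt-Ts2, -1.29 for mt-Tr, -0.70 for Mettl5 and 0.84 for mt-Tp.

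Single libraries stood apart from their group, with a gap to the nearest library that exceeded Dixon's critical share of the group's range, in 5 of 96 combinations of 24 genes and 4 groups. Chance gives about 1 in 20 for values without ties, a rate that does not hold for 3 of the 5, in which the other 7 libraries were tied at 0. Mir487b was at 0.197 TPM in vehicle-treated WT replicate 1 and at 0 in the other 7 libraries. Gm27379 was at 0.208 TPM in IMN-treated *Brd1*+/- replicate 6 and Gm25252 at 1.39 TPM in IMN-treated WT replicate 5, each with the other 7 at 0. Muc6 was at 0.1804 TPM in IMN-treated WT replicate 1, against 0.0896 in the nearest. mt-Tl2 was at 141 TPM in vehicle-treated *Brd1*+/- replicate 7, against 198 in the nearest.

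The 7SL copy Rn7s6, below the filter and outside every test, had a mean of 39.0 TPM in vehicle-treated *Brd1*+/- mice and was listed at 0 in all libraries of the other 3 groups.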

How the results depend on the processing

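Interaction calls numbered 143. They moved to 86 with a pseudocount of 0.01, 61 after quantile normalization, 88 with the number of genes above 0 as a covariate, 15 with a filter at 1 TPM (under which 21 of the 143 were tested) and 0 among multi-exon coding genes tested alone. With choices made after seeing the data, leaving out the 3 vehicle-treated *Brd1*+/- libraries with most genes gave 43 (89 of the 143 were tested) and leaving out the 6 libraries with Ttr at 996 TPM or more gave 84. Without single libraries they ran from 112 (without vehicle-treated *Brd1*+/- replicate 4) to 151. IMN in *Brd1*+/- mice (336) moved to 585 without a filter, 24 at 1 TPM, 134 by quantile normalization, 166 with sample code terms, 123 with the covariate, 1 among multi-exon genes and, added later, 188 in a 2-group fit. Genotype with vehicle (304) moved to 517, 28, 148, 153, 2 and 172 under no filter, 1 TPM, quantile, covariate, multi-exon and 2-group settings. IMN in WT (2) gave 0 under median-ratio, quantile, all-48, code, multi-exon and 2-group settings, and 0 to 3 without single libraries. Genotype with IMN (6) gave 3 with code terms, 1 among multi-exon genes and 3 to 6 without single libraries. The IMN against FLX comparison (0) gave 1 without a trend and 0 to 1 without single libraries. The causes were not tested. With the replicate block the interaction gave 16 calls fewer, IMN in *Brd1*+/- mice 27 fewer and IMN in WT 1. Same-numbered libraries correlated above 0.1 in 15 of 48 pairs (-0.28 to 0.32), so the numbers were not taken as pairing. Named genes reversed in no alternative, and Mir487b and Gm27379 were called in all 44. Other named genes were less stable. Over all pairs of named gene and setting, a call was lost in 23 and gained in 1 under changed settings. Without single libraries a call was lost in 1 pair and gained in 13. The unknown read depth limits what a 0 means in these data.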

Other observations

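Fluoxetine-treated WT libraries, which do not enter the IMN interaction itself, fell into separate levels for some of the same transcripts. In replicates 1 to 5 mt-Th was at 16.7 to 31.0 TPM, mt-Tl2 at 49.7 to 84.2 and Malat1 at 159 to 204. In replicates 6 to 8 mt-Th was at 65.0 to 76.1 TPM, mt-Tl2 at 125.6 to 198 and Malat1 at 269 to 344. The levels of mt-Th in the latter replicates lay in the range of the IMN-treated WT libraries, 63.9 to 93.4 TPM. Those of mt-Tl2 and Malat1 reached below the IMN-treated WT ranges, which were 162 to 224 TPM and 305 to 513 TPM. Replicates 6 to 8 carried the lower sample codes of the group and otherwise the same labels, and no test was made on a split seen in the values.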
